A study of Mus musculus with 22 samples.

Results

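Gsto1 and Gsto2 encode the omega class of cytosolic glutathione transferases, and their transcripts were followed here in FE1 cells exposed for 24 h to Mitsui7, a multi-walled carbon nanotube material. Members were the genes to which the accession of an array probe maps, which gave 2 genes of the 20018 with a symbol on the array, each with 1 probe and 1 spot. Gsto1 was read by the probe annotated to NM_010362 and Gsto2 by the probe annotated to NM_026619. Both genes were chosen from their values in these same arrays, so their levels and changes are given as a description, with intervals and no p-value. FE1 is a spontaneously immortalised epithelial line from the lung of the transgenic MutaMouse, which carries a lacZ reporter in every group. Control cells (5 arrays) received 0 µg/ml of Mitsui7. The low dose was 12.5 µg/ml, with 6 arrays, the medium dose 25 µg/ml, with 5 arrays, and the high dose 100 µg/ml, with 6 arrays. FE1 RNA was labelled with Cy5 and hybridised against a Cy3-labelled pool of RNA from 11 mouse cell lines, so each value is a log2 ratio of sample over pool. Exposures were run in 3 experiments, fewer than the 5 or 6 arrays of a group, and it is not stated which arrays came from which, so arrays of a group may share an experiment and the errors and p-values measure only the spread between these samples.

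Omega class enzymes differ from most glutathione transferases in using a cysteine rather than a tyrosine or serine at the active site. They conjugate few of the usual electrophiles, and instead act as thioltransferases, reduce dehydroascorbate back to ascorbate and reduce methylated arsenic species. GSTO1 is also known for removing glutathione from proteins and for a role in interleukin-1 beta release through the NLRP3 inflammasome, and GSTO2 for high dehydroascorbate reductase activity. Their fold is shared with the CLIC proteins, chloride intracellular channels.

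Gsto1 and Gsto2 lie next to each other on mouse chromosome 19, with 0 protein-coding genes between them, and Itprip, which encodes a protein that binds inositol trisphosphate receptors, is the next gene after Gsto2. The 250 bases before the most upstream start that RefSeq lists for each of these 3 genes are shown because all 3 transcripts were higher at every dose. They are written 5′ to 3′ on the strand of the gene, from the GRCm38.p6 build, with matches to any searched motif in capitals. The window of Gsto1 is chr19:47854723-47854972 on the plus strand, that of Gsto2 is chr19:47865295-47865544 on the plus strand, and that of Itprip is chr19:47919324-47919573 on the minus strand.
Gsto1: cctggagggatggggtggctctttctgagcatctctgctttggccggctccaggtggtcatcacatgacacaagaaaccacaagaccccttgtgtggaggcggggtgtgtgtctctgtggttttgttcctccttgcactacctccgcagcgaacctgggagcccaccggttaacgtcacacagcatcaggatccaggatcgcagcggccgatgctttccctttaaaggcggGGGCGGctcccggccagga
Gsto2: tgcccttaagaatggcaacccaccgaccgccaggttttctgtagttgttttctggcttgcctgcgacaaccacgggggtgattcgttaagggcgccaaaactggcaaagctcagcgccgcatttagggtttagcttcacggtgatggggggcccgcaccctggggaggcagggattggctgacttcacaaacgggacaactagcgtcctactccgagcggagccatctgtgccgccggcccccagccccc
Itprip: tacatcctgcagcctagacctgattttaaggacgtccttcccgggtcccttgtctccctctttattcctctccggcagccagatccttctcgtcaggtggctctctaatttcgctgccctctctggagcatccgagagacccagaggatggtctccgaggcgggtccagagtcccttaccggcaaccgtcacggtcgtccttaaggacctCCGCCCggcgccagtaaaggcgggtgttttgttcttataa
These windows were searched on both strands for 4 motifs, the antioxidant response element core (TGACNNNGC), the xenobiotic response element core (GCGTG), the AP-1 site (TGANTCA) and the GC box core (GGGCGG). Matches were found only for the GC box core, 1 in Gsto1 and 1, on the opposite strand, in Itprip, and 32.7% of all 32851 windows of this length in the RefSeq promoter table hold that motif. The antioxidant response element core is held by 10.2% of these windows, the xenobiotic response element core by 28.2% and the AP-1 site by 6.75%. A match or its absence describes the letters of these windows and nothing further. Gsto2 has 2 starts in that table, and the downstream one was not used here.

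The arrays lay on 5 slides with 1 scan time each, and slide was a term in every comparison. Cy5 signal was above the negative controls at 23688 to 39139 of the 55681 probes per array. Over 19430 probes, 16 of the 22 arrays correlated best with the other arrays of their own group. Low dose replicate 1 correlated best with the medium dose arrays and medium dose replicate 2 with the low dose arrays. The changes of Gsto1 and Gsto2 are therefore given with and without these 2 arrays. Of the other exceptions, low dose replicate 2 was closest to the controls, medium dose replicates 1 and 5 to the high dose and high dose replicate 6 to the medium dose. Of 6 epithelial markers, 3 (Krt7, Krt8 and Krt18) were detected on all control arrays, whereas Cdh1 and Epcam were not well above background on any of the 22 arrays. All 4 mesenchymal markers (Vim, Col1a1, Col3a1 and Pdgfra) were well above background on all arrays, and 3 of them were called lower at the high dose. Krt7 was also called lower there (−0.85). Of 4 alveolar type I markers only Hopx was called at the high dose, lower (−2.08). Of 6 alveolar type II markers only Lamp3 was called, higher (0.90). The uncalled markers of either list went in both directions. The part of this in the values below was not tested. Both omega genes were well above background on all 22 arrays, with no saturated spot.

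Gsto1 transcripts were 3.05-fold higher than in control cells at 12.5 µg/ml (95% interval 2.58 to 3.60), 2.94-fold higher at 25 µg/ml (2.48 to 3.49) and 3.93-fold higher at 100 µg/ml (3.32 to 4.64). In control cells the log2 ratio of Gsto1 was 0.47, 0.61, 0.55, 0.19 and 0.51 on the 5 arrays. At the low dose it ran from 1.90 through a median of 2.15 to 2.35 over 6 arrays. The 5 medium dose arrays read 2.00, 2.14, 1.95, 1.80 and 2.23. Every exposed array so far lay above every control array, and the low and medium dose arrays overlapped with each other. At the high dose the lowest value was 2.15, the median 2.52 and the highest 2.86. The 6 high dose arrays also lay above all controls, and 4 of them lay above every medium dose array. The group means were 0.47 ± 0.16 (SD, n = 5), 2.12 ± 0.17 (SD, n = 6), 2.02 ± 0.17 (SD, n = 5) and 2.49 ± 0.27 (SD, n = 6) from control to high dose.

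The difference was wider for Gsto2, with transcripts 6.12-fold (95% interval 4.41 to 8.48), 8.79-fold (6.29 to 12.28) and 10.97-fold (7.91 to 15.21) higher than in control cells from the low to the high dose. Control arrays read −1.22, −1.08, −1.45, −0.75 and −1.16, which puts this transcript below the reference pool in unexposed cells. The 6 low dose arrays ran from 1.02 through a median of 1.30 to 2.25, and the 2.25 was low dose replicate 1. The medium dose arrays read 2.28, 1.29, 2.18, 2.20 and 2.06, of which the lowest was medium dose replicate 2. These 2 arrays, which also stood with the other dose by their whole profile, lay farthest from the means of their groups. At the high dose Gsto2 ranged from 1.86 through a median of 2.27 to 2.74. No exposed array overlapped with a control array, and 3 of the 6 high dose arrays lay above every medium dose array. The means were −1.13 ± 0.26 (SD, n = 5), 1.46 ± 0.47 (SD, n = 6), 2.00 ± 0.41 (SD, n = 5) and 2.30 ± 0.33 (SD, n = 6).

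**Figure D1:**
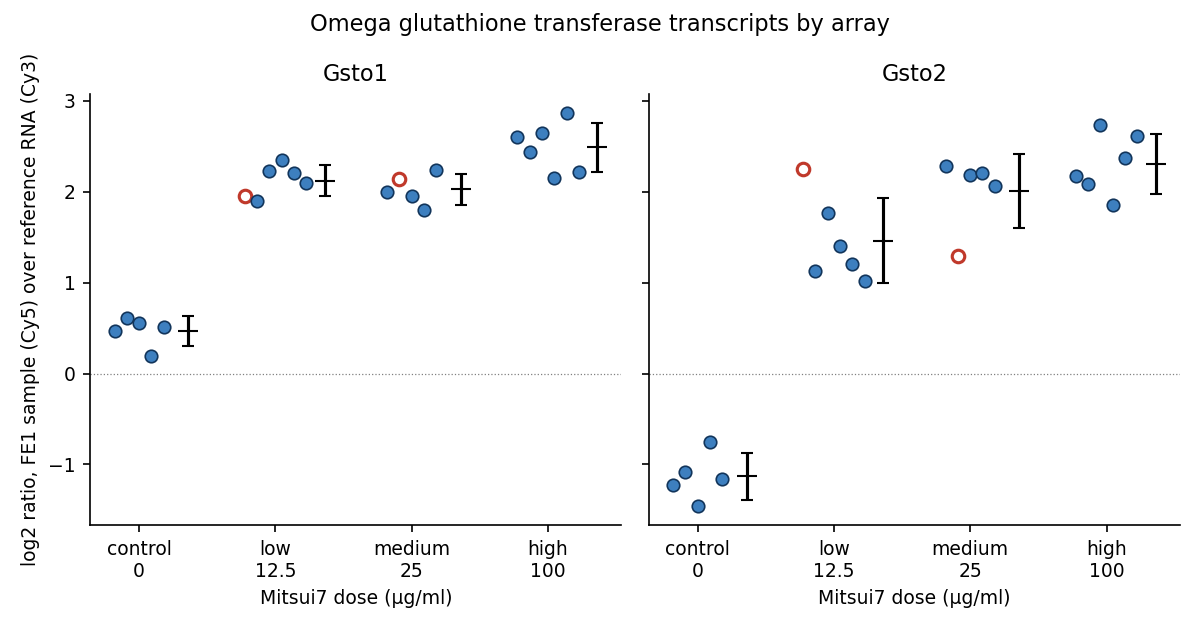
Log2 ratio of FE1 sample (Cy5) over reference RNA (Cy3) for Gsto1 (left) and Gsto2 (right) on each array, by Mitsui7 dose in µg/ml, with the group mean and SD beside the points. Open red circles are low dose replicate 1 and medium dose replicate 2. Every exposed array of both genes lies above every control array.

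With slide in the model, the change of Gsto1 against control was 1.61 (SE 0.12, 95% interval 1.37 to 1.85) at the low dose, on the log2 scale. It was 1.56 (SE 0.12, interval 1.31 to 1.80) at the medium dose and 1.97 (SE 0.12, interval 1.73 to 2.22) at the high dose. Among increases at all detected genes the Gsto1 change ranked 17 of 13642, 31 of 13412 and 21 of 14027 from low to high dose. For Gsto2 the change was 2.61 (SE 0.23, interval 2.14 to 3.09), 3.14 (SE 0.23, interval 2.65 to 3.62) and 3.46 (SE 0.23, interval 2.98 to 3.93). Its rank was 5, 4 and 2, so that at the high dose 1 gene had a larger increase. The 3 comparisons share their 5 control arrays.

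Gsto1 did not separate between the low and medium doses, with a difference of −0.05 (interval −0.29 to 0.19) for medium minus low. High minus medium was 0.42 (interval 0.17 to 0.66). For Gsto2, medium minus low was 0.52 (interval 0.05 to 1.00) and high minus medium 0.32 (interval −0.15 to 0.79). Whether these steps differ between the genes was not tested. By mean level Gsto1 ran control, medium, low and high dose, with medium and low not separated. Its high dose was not separated either with median centring, where high minus medium was 0.24 (interval −0.31 to 0.79) and high minus low 0.46 (interval −0.06 to 0.98). Within single slides high minus medium of Gsto1 ran from −0.01 to 0.70 and high minus low from −0.19 to 0.65. By mean level Gsto2 ran control, low, medium and high dose, with medium and high not separated. The interval of its medium minus low difference reached 0 with the scanner ratios (0.39, interval −0.10 to 0.88) and with the authors' processed values (0.44, interval −0.01 to 0.90). It also did so without low dose replicate 2, 4, 5 or 6, without medium dose replicate 1, 3, 4 or 5, and without high dose replicate 5, with differences of 0.40 to 0.51. From low to high dose, an 8-fold higher concentration, the difference was 0.37 (interval 0.14 to 0.59) for Gsto1 and 0.84 (interval 0.40 to 1.28) for Gsto2, while the difference between low dose and control was 1.61 and 2.61.

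Without low dose replicate 1 and medium dose replicate 2 the Gsto2 changes were 2.42, 3.30 and 3.44, and medium minus low was 0.87 (interval 0.49 to 1.25). Both arrays lay towards the other dose for Gsto2 too, so leaving them out widens that difference and narrows its interval by the choice itself. The other arrays that were closest to another group were kept. Under the same omission high minus medium was 0.14 (interval −0.22 to 0.51). The Gsto1 changes were then 1.64, 1.53 and 1.98, within the SD of their groups from the values of all arrays. Within single slides, each with 1 or 2 arrays per group, the high dose difference was 1.71 to 2.09 for Gsto1 and 2.60 to 4.19 for Gsto2, positive on 4 of 4 slides. The low dose difference was 1.38 to 2.16 for Gsto1 and 2.15 to 3.22 for Gsto2. For the medium dose it was 1.40 to 1.73 for Gsto1 and 2.94 to 3.64 for Gsto2.

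**Figure D2:**
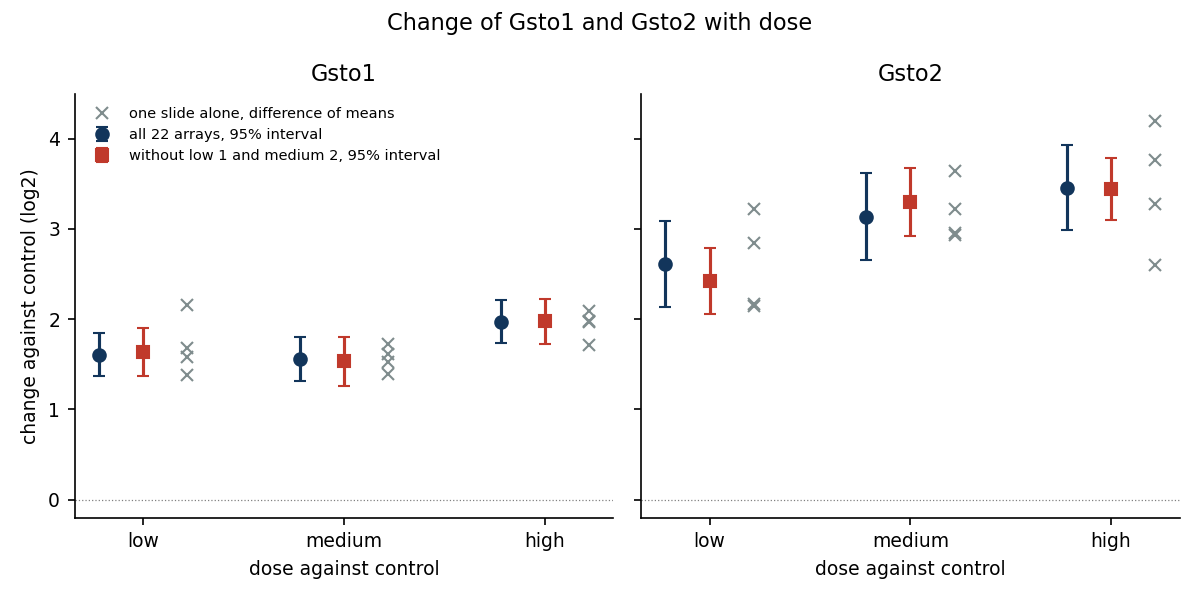
Change of Gsto1 (left) and Gsto2 (right) against control on the log2 scale at each dose. Circles are the model over all 22 arrays and squares the model without low dose replicate 1 and medium dose replicate 2, each with its 95% interval, and crosses are differences of means within 1 slide. All points lie above 0, with Gsto2 between 2.15 and 4.19 and Gsto1 between 1.38 and 2.16.

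The 2 genes were compared within arrays by an ordinary linear model with group and slide, not by limma. In it the change of Gsto2 exceeded that of Gsto1 on the log2 scale by 1.00 (interval 0.37 to 1.64) at the low dose. The excess was 1.58 (interval 0.93 to 2.23) at the medium dose and 1.48 (interval 0.84 to 2.12) at the high dose. The difference was in the sample channel. Relative to the 75th percentile of each array, Cy5 was higher by 1.61, 1.69 and 1.92 for Gsto1 and by 2.48, 3.11 and 3.47 for Gsto2, on the log2 scale. The Cy3 signal of the reference pool differed by −0.11 to −0.01 for Gsto1 and by −0.13 to −0.03 for Gsto2.

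The spots differed widely in brightness. Gsto1 was a bright spot, with Cy5 from 108 to 759 times the local background in controls and up to 2221 times at the high dose. Gsto2 was dim in controls, at 2.09 to 9.23 times the local background, and reached 28.9 to 116 times at the high dose. Background was not subtracted, which draws the ratio of a dim spot towards the ratio of the backgrounds. With the ratios of the scanner software, which subtract it but also correct the dyes in another way, Gsto2 changed by 2.90, 3.29 and 3.63. Normexp background correction was run with an offset of 50 added to the corrected signals. It gave Gsto2 changes of 2.55, 3.06 and 3.37, against 2.61, 3.14 and 3.46 without correction. The offset is of similar size to the Cy5 local background of Gsto2 in controls (66 to 75). An added offset also narrows the change of a dim spot, so this setting cannot show whether subtraction alone widens the Gsto2 change.

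Around the pair, Itprip was higher at all 3 doses and Slk at all 3, while the other neighbours with a probe were not called. Of the 5 protein-coding genes on either side, 9 had a probe. Itprip ran from −1.03 to −0.25 on control arrays, from 0.56 to 1.94 at the low dose, from 1.16 to 1.93 at the medium dose and from 1.18 to 1.82 at the high dose. No exposed array overlapped with a control array. Its change was 1.70 (SE 0.18, limma adjusted p = 7.17e-06), 1.90 (SE 0.18, adjusted p = 1.42e-06) and 1.99 (SE 0.18, adjusted p = 2.47e-07). Slk, a Ste20-like kinase of the cytoskeleton that lies 4 genes before Gsto1, was higher by 0.68 (limma adjusted p = 0.00305), 0.88 (0.000186) and 0.85 (0.000113). With arrays centred on their median in place of loess, Slk was no longer called at any dose (limma adjusted p = 0.435, 0.0724 and 0.0784), whereas Itprip was called under every alternative run. Genes called higher made up 2.21% of detected genes at the low dose, 4.28% at the medium dose and 5.47% at the high dose, and genes called lower 3.06%, 4.68% and 6.44%. The 2 called neighbours are set against these shares only as a count, since the region was chosen for its members. With median centring the share of calls that were increases went from 41.9% to 16.0% at the low dose, from 47.8% to 37.1% at the medium dose and from 45.9% to 31.1% at the high dose.

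Between Slk and Gsto1, Col17a1 (a hemidesmosome collagen) was at 0.09, 0.05 and 0.03, and Sfr1 (a recombination factor) at −0.77, −0.51 and −0.54 (limma adjusted p = 0.269, 0.528 and 0.426), each with 1 low dose array missing. Col17a1 was below the detection level at the medium and high dose. Cfap43, immediately before Gsto1, had no probe. Stn1, a telomere-capping subunit further out, changed by 0.07, 0.08 and 0.01. Beyond Itprip, changes of Cfap58, Sorcs3, Sorcs1 and Ins1 lay between −0.08 and 0.16, and Cfap58 and Sorcs3 were below the detection level at every dose. Ins1 was below that level at the medium dose. Gsto1, Gsto2 and Itprip thus stood in a row, with Cfap43 unmeasured on one side and Cfap58 undetected on the other.

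**Figure D3:**
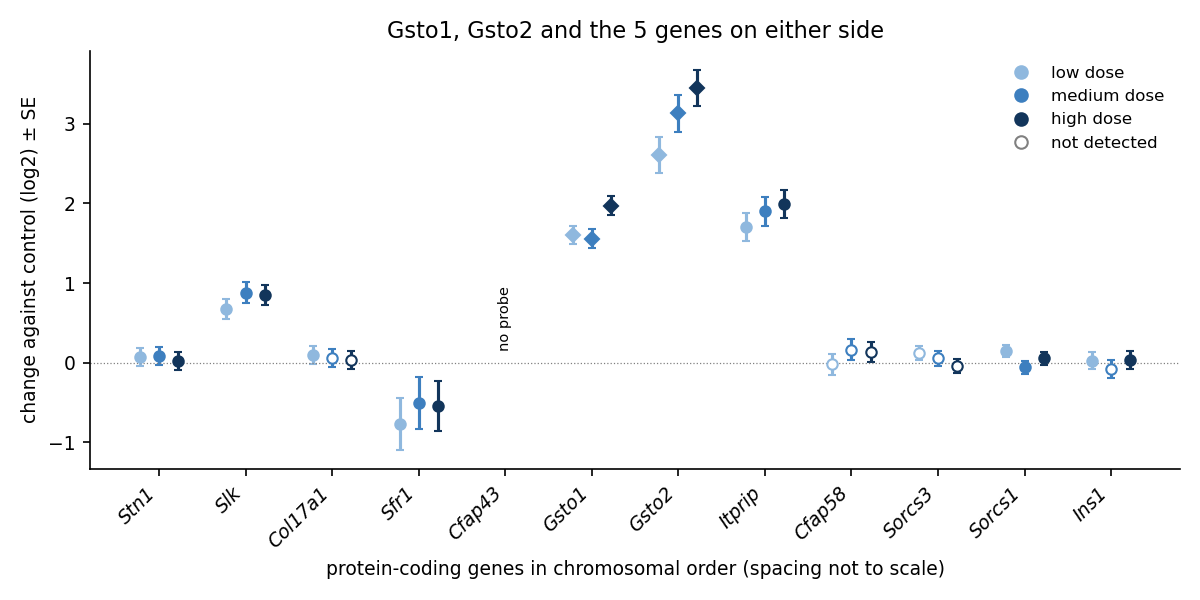
Change against control (log2, ± SE), with symbols from light to dark for increasing dose, for Gsto1, Gsto2 (diamonds) and the 5 protein-coding genes on either side (circles), in chromosomal order and not to distance. Open symbols were below the detection level and Cfap43 had no probe. Gsto2 stands highest, at 2.61, 3.14 and 3.46, with Gsto1 and Itprip beside it between 1.56 and 1.99.

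Among the other glutathione transferases detected at a given dose, limma called none higher there, also at an unadjusted p under 0.05. Of the other cytosolic classes (alpha, mu, pi, theta and zeta), 6 of 15 detected genes were lower at the low dose, 9 of 15 at the medium dose and 8 of 16 at the high dose. The median changes were −0.60, −0.62 and −0.53, where the median over all detected genes was 0.00, 0.00 and 0.01. Of all detected genes, 3.06%, 4.68% and 6.44% were called lower from low to high dose. Of the kappa and membrane-bound transferases and their relatives, 2 of 6, 2 of 7 and 3 of 7 were lower. Together these families had 18 of 23 detected genes below 0 at the high dose, and no member was called higher under any of the other 5 scalings. Lower calls over these families numbered 8, 11 and 11 from low to high dose, against 4, 5 and 9 with median centring and 5, 8 and 8 with the authors' processed values. Gsto1 and Gsto2 differed in sign from most of these genes, but their increase is among the values that chose them.

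The widest decrease among these families was that of Gstt1, a theta class enzyme that handles small halogenated compounds, which changed by −1.56, −2.03 and −2.31 (limma adjusted p = 5.19e-08, 1.23e-09 and 7.14e-11). Control arrays averaged a log2 ratio of 0.06 ± 0.20 (SD, n = 5) for this gene, against −2.25 ± 0.27 (SD, n = 6) for high dose arrays, without overlap. Gsta3, an alpha class enzyme, changed by −1.33 at the medium and −1.51 at the high dose (limma adjusted p = 0.00104 and 0.000139). Gsta4, an alpha class enzyme that conjugates lipid peroxidation products, changed by −1.11 at the high dose (limma adjusted p = 1.77e-05). Of the microsomal enzymes, Mgst1 changed by −1.39, −1.58 and −1.89 (limma adjusted p = 5e-07, 8.27e-08 and 2.23e-09), and its second probe moved by −1.45, −1.61 and −1.86. Mgst2 reached −0.87 and Mgst3 −0.75 at the high dose (limma adjusted p = 0.000388 and 0.00168). For Mgst3 only 2 of 6 high dose arrays lay below every control array, and its call at the high dose was lost without the slide term (limma adjusted p = 0.732), with slide as a random block (0.404) and below 1.5-fold with the authors' processed values (−0.58). The mu class genes are close relatives, so their probes may share signal.

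**Figure D4:**
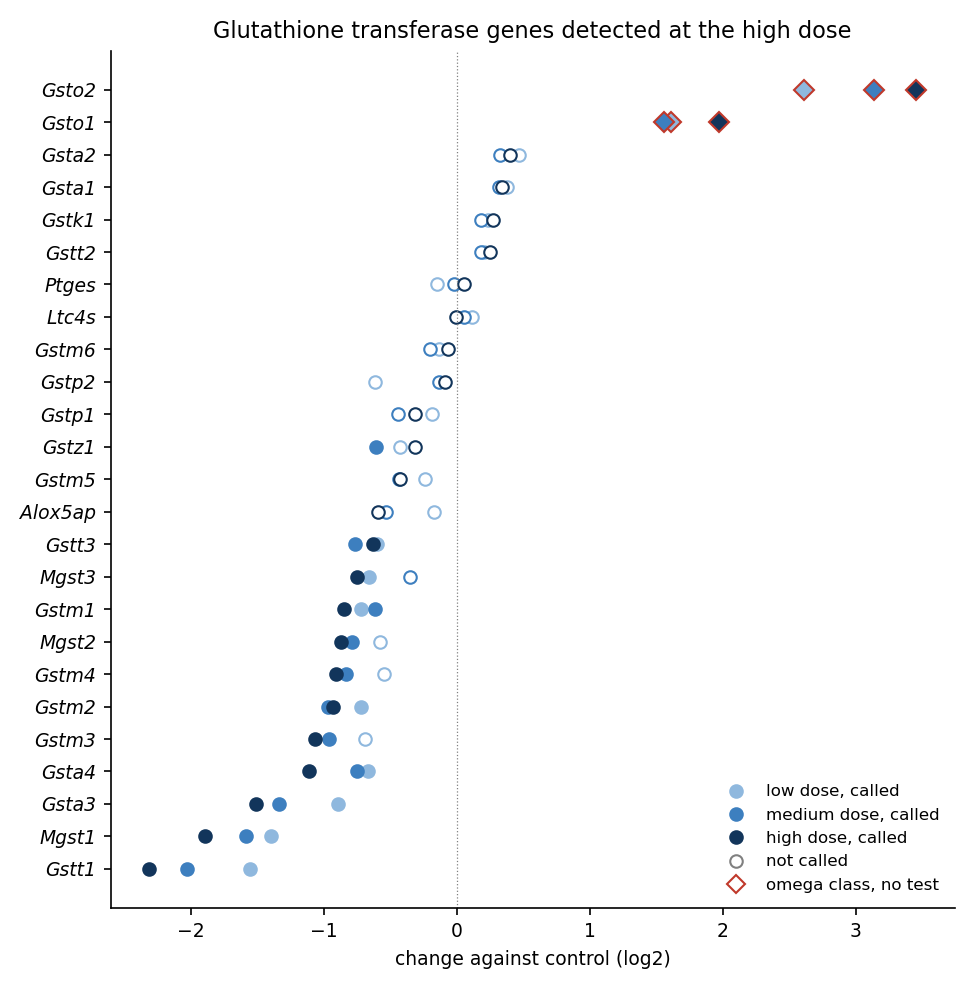
Change against control (log2) for each glutathione transferase gene detected at the high dose, with light to dark symbols for the low, medium and high dose. Filled circles were called, open circles were not, and diamonds are the omega genes, which were not tested. Gsto1 and Gsto2 lie at 1.56 to 3.46 and every called gene lies below 0, down to −2.31 for Gstt1.

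The remaining lists follow what omega class enzymes do. Of all detected genes, limma called 2.21%, 4.28% and 5.47% higher from low to high dose and 3.06%, 4.68% and 6.44% lower. In glutathione synthesis, recycling and breakdown, 3 of 18 detected genes were higher at the low dose, 2 of 17 at the medium dose and 4 of 18 at the high dose, with 1 lower each time. The list medians were 0.18, 0.10 and 0.08. Chac1, which breaks down cytosolic glutathione, changed by 1.78, 1.93 and 2.37 (limma adjusted p = 5.42e-06, 1.55e-06 and 4.04e-08), and all exposed arrays lay above all controls. At the high dose Slc3a2, the heavy chain of the cystine transporter, changed by 0.92 (limma adjusted p = 0.0113). Ggt1, which cleaves extracellular glutathione, changed by 0.91 (limma adjusted p = 2.92e-05, 5 of 6 high dose arrays measured). Slc7a11, the light chain of that transporter, changed by 0.90, 0.85 and 0.67 (limma adjusted p = 0.000796, 0.00104 and 0.00419), but at the high dose it fell below 1.5-fold without control replicate 2 (0.55). With median centring its calls at the medium (0.59, limma adjusted p = 0.061) and high dose (0.48, limma adjusted p = 0.102) were lost. Idh1, a cytosolic source of NADPH, changed by −0.95, −1.18 and −1.34 (limma adjusted p = 0.00014, 9.88e-06 and 7.57e-07). Without the slide term none of these was called, at −1.21, −1.35 and −1.60 (limma adjusted p = 0.398, 0.297 and 0.0935), and with slide as a random block the low dose call was lost (limma adjusted p = 0.109).

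Among enzymes with the thiol chemistry that GSTO1 shares, 2 of 11 glutaredoxins, thioredoxins and their partners were higher at the high dose. Both are thioredoxin reductases, Txnrd1 at 1.08 (limma adjusted p = 1.77e-06) and Txnrd3 at 0.74 (limma adjusted p = 0.00975). Txnrd3 was no longer called without the slide term (limma adjusted p = 0.15) or with median centring (0.316). Limma called none of the 6 glutathione peroxidases detected at the high dose, where 3 were lower and 0 higher at an unadjusted p under 0.05. The widest change among them was −0.68 for Gpx7 (limma adjusted p = 0.0896), which was called without high dose replicate 1 (−0.80) or high dose replicate 6 (−0.83). Of 7 detected genes of ascorbate and dehydroascorbate handling, 1 was lower at the high dose. This was P4hb, protein disulfide isomerase, at −1.15 (limma adjusted p = 0.00596), but its adjusted p was 0.0981 with the authors' processed values. None of 4 detected genes of arsenic methylation and export was called at the high dose, with 1 higher and 1 lower by limma at an unadjusted p under 0.05. The widest change was 0.48 for Abcc1, which exports glutathione conjugates (limma adjusted p = 0.00165, below 1.5-fold), and without control replicate 5 it was called at 0.59.

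Around interleukin-1 beta release, 1 of 7 detected genes was called lower and none higher at the high dose. At an unadjusted p under 0.05, limma had 3 lower and 1 higher. Il18, a cytokine cleaved by caspase-1, changed by −0.91, −1.09 and −1.34 (limma adjusted p = 4.09e-05, 3.87e-06 and 9.01e-08). Nlrp3 itself was at 0.06, 0.05 and 0.06, and Il1b was not detected at any dose. Limma called none of the 3 detected CLIC genes at the high dose, with 1 higher at an unadjusted p under 0.05. This was Clic4 at 0.33 (limma adjusted p = 0.0622), whose other probe was at 0.03. At the low and medium dose Clic4 was at 0.52 (limma adjusted p = 0.00657) and 0.42 (0.0227), both below 1.5-fold. Its other probe was then at 0.09 and −0.10. Of the ryanodine receptors, calcium channels on which omega class enzymes act, only Ryr1 was detected, at the high dose, and it changed by 0.15 (limma adjusted p = 0.644). Over all 10 lists, 5.19%, 5.19% and 7.50% of detected genes were higher from low to high dose and 15.6%, 18.2% and 17.5% lower. Over all detected genes these shares were 2.21%, 4.28% and 5.47% higher and 3.06%, 4.68% and 6.44% lower. Of the 12, 14 and 14 lower calls in the lists, 8, 11 and 11 were in the glutathione transferase families.

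The genes whose pattern was most like that of each omega gene were found by Pearson correlation of slide-adjusted log2 ratios over the 22 arrays, among 12254 genes. The arrays share dose groups and slides, so these values mostly order genes by their pattern over dose. Among the 5 genes closest to Gsto2 were Tgif1, a homeobox corepressor (r = 0.984), its neighbour Itprip (r = 0.982), the transcription factor Klf4 (r = 0.978) and the collagenase Mmp13 (r = 0.976). Its lowest correlations were with Islr (r = −0.979), Rab3d (r = −0.977) and Sesn1 (r = −0.974). Gsto1 was closest to Cmtm3 (r = 0.980), 1110038B12Rik (r = 0.972), Wdr55 (r = 0.970), the RNase P subunit Rpp38 (r = 0.965) and the kinase Map3k9 (r = 0.960). Its lowest were Calml4 (r = −0.982), Ppp2r2b (r = −0.981) and the transferase Mgst1 (r = −0.976). The omega genes were not closest to each other, as Gsto2 came 42nd for Gsto1 and Gsto1 came 81st for Gsto2 (r = 0.931). After group and slide were removed, the arrays gave r = −0.13 between them. With Spearman correlation 1 of the 8 genes (5 highest and 3 lowest) remained for either member, and with median centring 2 of 8 for Gsto1 and 3 of 8 for Gsto2. Between the omega genes the Spearman correlation was 0.706, which put Gsto2 at place 485 for Gsto1 and Gsto1 at place 1032 for Gsto2. With median centring their r was 0.945 and these places were 29 and 25.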

How the data were processed

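RNA of 22 FE1 samples (Cy5) was hybridised against Universal Mouse Reference RNA (Cy3) on Agilent arrays, with no dye swap. The deposited scanner files hold median intensity per spot and a log10 ratio that the scanner software made with its own background and dye correction. Per the file headers the software was Feature Extraction 10.7.3.1 at a resolution of 3 µm, whereas the study's methods name another version and resolution. The authors' processed matrix holds log2 ratios whose normalization is not given in the sources used here.

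Median signals were used without subtracting background. Their log2 ratios of Cy5 over Cy3 were loess-normalised array by array, with control spots and spots carrying the scanner's non-uniformity or outlier marks at weight 0. Marked spots were treated as missing. Accessions were matched to RefSeq symbols of GRCm38.p6 (26413 of 55681 probes), while the array grid was annotated on mm9, so only gene order was taken from that table. A gene was read by its brightest probe. Detection required Cy5 above the 5% trimmed mean plus 3 trimmed SDs of 308 negative control spots on at least 4 arrays of either group compared.

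One limma 3.58.1 model (R 4.3.3) with terms for group and slide covered the 22 arrays. The permutation test of the study's methods was not installed. Benjamini-Hochberg adjustment ran over every probe, and features were called at an adjusted p up to 0.05 with at least a 1.5-fold change. The computation was tested on simulated data. Members and lists were chosen with earlier results of these data known. Named list genes are up to 3 largest increases and 3 largest decreases per list among calls at the high dose, or the widest change where none was called; Slc7a11 was added after its values were seen. For each member the 5 highest and 3 lowest correlations were taken, of which 1 gene is not reported here. Same-numbered arrays deviated together (r at least 0.174 for 27 pairs on the same slide and at least 0.345 for 4 pairs on different slides), and the number largely coincides with the slide. No arrays were duplicates (highest correlation 0.980). The number of arrays limits the precision. Alternatives covered slide and replicate terms, scaling, background, thresholds and the omission of arrays.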

Additional observations from a re-analysis of the deposited data

Results flagged for a closer look

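The Gsto2 log2 ratio of medium dose replicate 2 was 1.29, far below the other 4 medium dose arrays for the range of that group. About 1 in 20 groups shows such a gap by chance, and 8 groups of arrays were looked at. The cause was not tested.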

How the results depend on the processing

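No change of Gsto1 or Gsto2 against control turned negative under any of the alternatives, and with 1 array left out the changes ranged from 1.49 to 1.65, 1.49 to 1.61 and 1.92 to 2.04 for Gsto1 and from 2.41 to 2.74, 2.98 to 3.32 and 3.30 to 3.60 for Gsto2 from low to high dose. With the replicate block in place of slide, the changes were 1.68, 1.56 and 2.05 for Gsto1 and 2.61, 3.14 and 3.45 for Gsto2, and the pairing ended none of the calls at named genes but added Slc3a2 (0.71, limma adjusted p = 0.00268) and Clic4 (0.65, limma adjusted p = 0.0016) at the low dose. Values on 1 slide alone moved by more than 1 SD for Gsto1 at the low dose (1.38 on slide 1, 2.16 on slide 3) and for Gsto2 on slide 2 (3.22, 3.64 and 4.19) and slide 3 (2.60 at the high dose). Median centring turned the Gsto1 difference between medium and low dose to 0.22. It also moved the median of all genes at the low dose to −0.107, and Gsto1 remained 1.47 and Gsto2 2.45 there. List genes called higher numbered 4, 4 and 6 and lower 12, 14 and 14. At 2-fold the counts were 1, 1 and 2 higher and 3, 5 and 8 lower, and without a fold threshold 11 and 13 were higher at the medium and high dose. Without the slide term 6 and 9 were lower at the low and medium dose, with median centring 2 were higher and 7 lower at the low dose and 7 lower at the medium dose, and with only the groups compared 7 were lower at the low dose. With 1 array left out, counts of list genes ranged from 4 to 5, 3 to 5 and 5 to 10 higher and from 8 to 13, 10 to 14 and 13 to 15 lower, the 10 higher at the high dose being without control replicate 5. Neighbours called higher fell from 2 to 1 at each dose at 2-fold and with median centring. Without low dose replicate 1 and medium dose replicate 2, the low dose calls of Gsta3 (limma adjusted p = 0.0677) and P4hb (0.0598) were lost. A low dose call of Slc3a2 was then gained (0.77, limma adjusted p = 0.0448). The 8 genes most like each member shared 1 with the Spearman list, and 2 (Gsto1) or 3 (Gsto2) with the median-centred list. Of 45 calls at named list genes and neighbours, 24 held under every alternative run for single genes. Another 21 were lost under at least 1 and none reversed. Other fold and detection thresholds and single slides were not among the alternatives run for these genes. Each member has 1 probe, so no other probe could be tried.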
